A study of Mus musculus with 8 samples.

Results

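The RAS-MAPK drivers Nras, Hras and Braf and the feedback and response genes Dusp4, Dusp5, Dusp6, Spry2, Spry4 and Etv4 were measured by RNA-seq in cultured Lewis lung carcinoma (LLC) cells, a transplantable mouse lung cancer line. These 9 genes were chosen by name and matched by Ensembl identifier among the 55487 genes of the count table. All 9 passed the filter on low counts that left 14228 tested genes. The 4 wild-type libraries were compared with 4 ΔAgo2 libraries. The ΔAgo2 line was made with a lentiviral CRISPR-Cas9 guide against Ago2, the slicing Argonaute protein that carries microRNAs, followed by puromycin selection and sorting of single cells into clones. The sources used here do not state whether the 4 ΔAgo2 libraries came from a single clone, or that the wild-type cells received a vector. Both groups were grown in the same medium with serum and antibiotics, and all 8 labels name a single batch. The labels call the libraries of a group biological replicates but do not say whether they came from separate cultures, so p-values measure the spread between these libraries, which may be technical.

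RAS proteins are small GTPases at the inner face of the plasma membrane that, when loaded with GTP by exchange factors downstream of growth factor receptors, recruit RAF kinases such as Braf. RAF activates MEK, MEK activates ERK, and ERK switches on its own inhibitors: dual-specificity phosphatases, which strip phosphate from MAP kinases, and Sprouty proteins, which dampen signalling from receptors to RAS. Transcripts of Dusp6, Spry2, Spry4 and Etv4 are often read as a gauge of ERK output in lung and other carcinomas.

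The promoters of Dusp5 and Dusp6 are shown because these phosphatases were among the members whose ΔAgo2 libraries separated from wild-type by at least one scale of expression. RefSeq promoter sequences of GRCm38.p6, running from 250 bases before to 50 bases after the start, were at hand for 6 of the 9 members. The Dusp5 stretch lies on the plus strand at chr19:53528895-53529194 and the Dusp6 stretch on the plus strand at chr10:99262981-99263280. Capitals mark CArG boxes, the motif bound by serum response factor, a partner of ERK-responsive ETS factors.
Dusp5: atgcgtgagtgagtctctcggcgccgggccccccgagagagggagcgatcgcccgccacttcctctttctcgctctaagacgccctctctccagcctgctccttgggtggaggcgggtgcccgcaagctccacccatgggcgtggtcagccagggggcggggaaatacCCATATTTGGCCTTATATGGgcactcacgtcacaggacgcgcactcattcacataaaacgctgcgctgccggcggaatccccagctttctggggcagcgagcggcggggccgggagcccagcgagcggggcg
Dusp6: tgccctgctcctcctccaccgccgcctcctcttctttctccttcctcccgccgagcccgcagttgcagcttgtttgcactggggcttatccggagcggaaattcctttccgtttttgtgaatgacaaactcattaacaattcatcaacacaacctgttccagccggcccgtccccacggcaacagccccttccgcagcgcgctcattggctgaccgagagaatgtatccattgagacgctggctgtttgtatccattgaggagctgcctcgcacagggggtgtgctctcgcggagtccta
The Dusp5 promoter held 2 adjacent CArG boxes, at positions -82 to -73 and -72 to -63 from the start site, which share no base. A CArG box on either strand occurred in 1.63% of 32851 mouse promoters of this length. The other motifs searched on both strands were an ETS motif, an AP-1 motif and the CRE. The ETS motif CCGGAA occurred in 14.9% of promoters, the AP-1 motif TGANTCA in 7.81% and the CRE TGACGTCA in 1.79%. The shorter ETS core GGAA was not searched, and both printed stretches hold it. The promoters of Hras and Spry2 each held 1 ETS motif, and that of Braf held 2 CREs, at -99 to -92 and -81 to -74. Those of Nras and Dusp6 held none of the 4 motifs as searched. A match is a description of these letters, and the binding of no factor was measured.

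Since Ago2 acts through microRNAs, the longest 3′ untranslated region of each member was also searched for matches to the seeds of let-7, a microRNA family known for targeting RAS, and of miR-21. The mature sequences from RefSeq are shown with the seed, bases 2 to 8, in capitals.
mmu-let-7a-5p: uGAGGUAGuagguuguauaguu
mmu-miR-21a-5p: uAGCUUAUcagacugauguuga
The let-7a seed is shared by 11 mature mouse microRNAs and the miR-21a seed by 2. Sites that pair with bases 2 to 8 were present in 3 of the 9 members, with the paired bases in capitals in the sense strand of the transcript.
Nras, let-7 site: gacctcttcagaataaCTACCTCctcactc
Braf, let-7 site: aaaaaaaaaaaaaaccCTACCTCctcagaa
Braf, miR-21 site: cagcagatgtcaaccaATAAGCTattttta
Spry2, miR-21 site: tggagacccacattgcATAAGCTaaagcag
On GRCm38 these windows lie at chr3:103064358-103064387 in exon 7 of 7 of Nras, at chr6:39606883-39606912 and chr6:39606364-39606393 in exon 22 of 22 of Braf, and at chr14:105892492-105892521 in exon 2 of 2 of Spry2. Braf and Spry2 are on the minus strand. Of 21037 genes with an annotated 3′ untranslated region, 9.02% held a let-7 site and 7.18% a miR-21 site in their longest one. The searched region had 7145 bases in Braf and 3727 in Nras, against a median of 960 over all genes. No microRNA was measured in these libraries.

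The libraries held 39628101 to 68530912 counts. Wild-type replicate 4 stood apart from the other libraries. Its median Spearman correlation with the other wild-type libraries was 0.864, against at least 0.948 for every other library within its group, 0.540% of its counts were mitochondrial, against 2.39% to 4.51% elsewhere, and its deviation rose with GC content across genes (Spearman rho 0.72, across genes, which are not independent replicates). Among ΔAgo2 libraries, replicates 1 and 2 were the most alike but differed by more than sampling noise (chi-square per gene 22.8 against 89.0 to 126). Each was counted. By the same measure wild-type replicates 1 to 3 differed from each other at 363 to 579, and from wild-type replicate 4 at 1124 to 1595. Ago2 itself stood at 306.02, 269.7, 519.5 and 119 CPM in wild-type replicates 1 to 4 and at 389, 293, 408 and 316 CPM in ΔAgo2 replicates 1 to 4, so the groups overlapped for the targeted transcript, and each library is called by its label. The study examined Ago2 protein in wild-type and ΔAgo2 LLC cells by Western blot, and RNA libraries do not measure protein. CPM are counts scaled to library size with edgeR's TMM factors. The keratins Krt8 and Krt18 had at least 2570 counts in every library, while the epithelial markers Epcam and Cdh1 had at most 9 counts, the lung epithelial markers Nkx2-1, Sftpb and Scgb1a1 had 0, and the leukocyte marker Ptprc had at most 2. Itgax, an integrin gene on the list of leukocyte markers, had 68 to 618 counts per library.

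The comparison asked whether the transcripts of RAS-MAPK drivers and of the genes that report ERK output differ between wild-type and ΔAgo2 cells. The feedback inhibitors Spry4 and Dusp5 had the largest differences towards ΔAgo2, with fitted levels 1.83-fold and 1.61-fold those of wild-type cells. Dusp6, Nras, Spry2, Etv4 and Braf also had log2 fold changes above 0, and Hras and Dusp4 were below 0. No member passed an adjusted p of 0.05 (0 of 9), where 0.295% of all 14228 genes did (quasi-likelihood test of edgeR, two-sided, p-values adjusted by Benjamini-Hochberg over all tested genes). DESeq2 called 0 of the 8 members it gave an adjusted p, Hras having none, where it called 2.23% of genes, limma-voom with equal weights called 0 of 9, where it called 0.337%, and limma-voom with sample weights called 1 of 9, Spry4, where it called 1.81%. An unadjusted p under 0.05 was reached by 2 of 9 members, Spry4 and Dusp5, both higher in ΔAgo2, where 2.72% of all genes reached it with a higher level in ΔAgo2 and 7.34% in either direction. The median log2 fold change of the 9 members was 0.26, beside -0.11 over all tested genes, and 7 of 9 members were above 0 while 58.8% of all genes were below it. With the GC correction the members' median was 0.066, with 6 of 9 above 0, and in limma on log2(TPM + 1) it was 0.59, with 8 of 9 above 0, beside -0.096 and 0.15 over all genes. In bulk RNA, a change in every cell and a change in the number of cells that hold the transcript cannot be told apart.

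**Figure D1:**
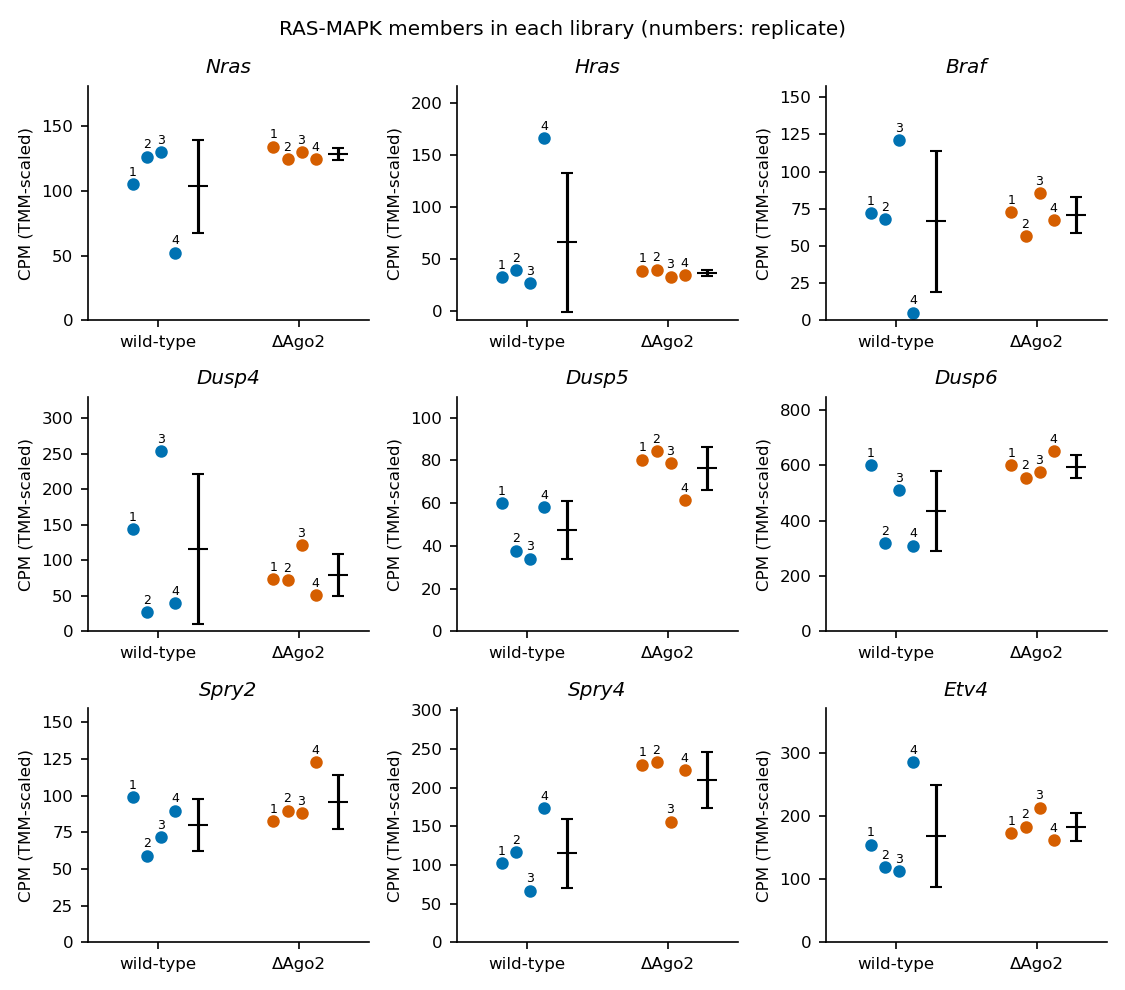
CPM of the 9 members, on a separate linear axis for each gene, in the 4 wild-type (blue) and 4 ΔAgo2 (orange) libraries, with the replicate number above each point and the mean and SD as bars. For Dusp5 every ΔAgo2 library, from 61.4 CPM, lies above every wild-type library, up to 59.9 CPM, while wild-type replicate 4 lies far from the other libraries for Hras and Braf.

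Among the drivers, Nras (ENSMUSG00000027852.14, plus strand, chr3:103058285-103067914), a RAS GTPase, stood at 105, 126, 129.7 and 52.3 CPM in wild-type replicates 1 to 4. In ΔAgo2 replicates 1 to 4 it stood at 134, 124, 129.7 and 124 CPM. Wild-type replicate 4 was the lowest library, and the ranges of the other 7 overlapped. The means were 103 ± 35.7 CPM for wild-type and 128 ± 4.62 CPM for ΔAgo2 cells (SD, n = 4 each). Nras had a log2 fold change of 0.31 (standard error 0.31, adjusted p = 0.815 with edgeR), and 0.098 without wild-type replicate 4.

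Hras (ENSMUSG00000025499.18, minus strand, chr7:141189105-141194005), another RAS GTPase, stood at 32.4, 39.2, 26.5 and 166 CPM in wild-type replicates 1 to 4 and at 38.7, 39.7, 33.2 and 34.6 CPM in ΔAgo2 replicates 1 to 4. One wild-type library, replicate 4, held several times the level of all others, and the groups overlapped. The means were 66.1 ± 67.0 and 36.6 ± 3.15 CPM (SD, n = 4 each), and the log2 fold change came to -0.85 (standard error 0.55, adjusted p = 0.740 with edgeR). Without wild-type replicate 4 the sign turned, to 0.17 (adjusted p = 0.739 with edgeR).

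Braf (ENSMUSG00000002413.15, minus strand, chr6:39603237-39725463), a RAF kinase that phosphorylates MEK, stood at 72.1, 67.9, 121 and 5.25 CPM in wild-type replicates 1 to 4. In ΔAgo2 replicates 1 to 4 it stood at 72.9, 56.6, 85.4 and 67.5 CPM. Here wild-type replicate 4 was the low extreme, with 169 counts, the fewest of any member in any library, and the groups overlapped. Braf had means of 66.6 ± 47.5 and 70.6 ± 12.0 CPM (SD, n = 4 each) and a log2 fold change of 0.084 (standard error 0.65, adjusted p = 0.982 with edgeR), which was -0.29 without wild-type replicate 4 and -0.034 without ΔAgo2 replicate 3. Its annotation overlaps the opposite-strand gene Ndufb2 by 146 bases. Ndufb2 held 240 to 619 counts per library, with 319 in wild-type replicate 4. The Braf annotation also contains the pseudogene Fth-ps2, which held at most 56 counts in any library. The strand setting of the counting is not given in the sources used here, so reads in such overlaps cannot be told apart.

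The drivers deviated in different directions in wild-type replicate 4. Hras was higher there than the mean of the other wild-type libraries by 2.36 on the log2 scale, a shift above that of 97.2% of tested genes. Braf had a shift of -3.99 and Nras one of -1.19, where only 0.998% and 27.1% of tested genes lay lower. The GC content of the longest transcript was 55.2% for Hras and 42.6% for both Braf and Nras. The part of GC content in these shifts was not tested. With each library corrected for GC content the log2 fold changes were -0.35 for Hras, 0.066 for Braf and 0.033 for Nras.

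**Figure D2:**
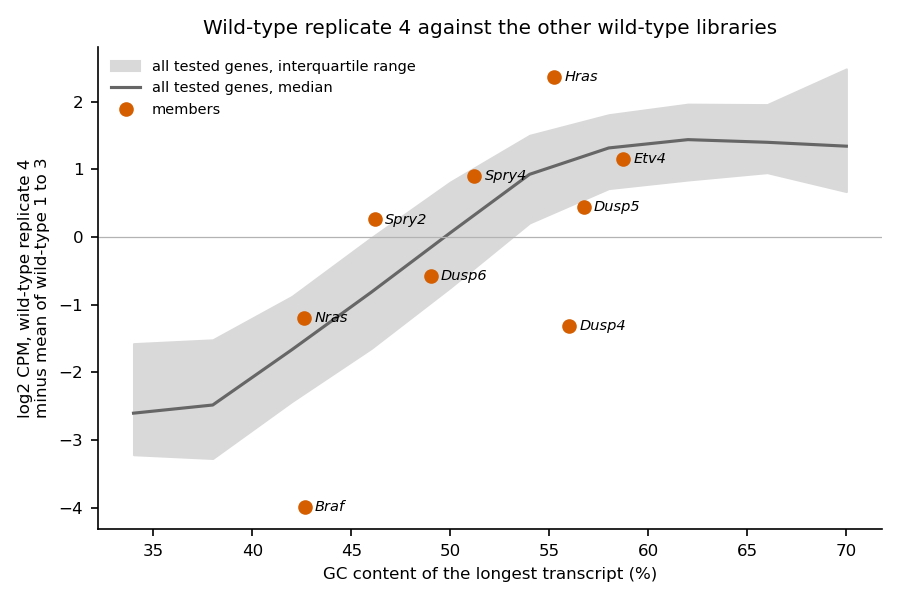
Log2 CPM of wild-type replicate 4 minus the mean of wild-type replicates 1 to 3 (y axis) against the GC content of the longest transcript in percent (x axis), with the median (line) and the interquartile range (grey) of all tested genes in bins of GC content and the 9 members as points. Hras at 2.36 and Spry2 at 0.26 lie above the grey band at their GC content. Braf at -3.99, Dusp4 at -1.31 and Dusp5 at 0.45 lie below it. Nras at -1.19, Dusp6 at -0.57 and Etv4 at 1.16 lie within it, and Spry4 at 0.90 lies near its upper edge.

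The drivers can be set against each other in TPM, the deposited values scaled to gene length and library total. Nras stood at 60.7, 92.7, 83.3 and 21.8 TPM in wild-type replicates 1 to 4 and at 94.8, 84.7, 82.3 and 82.5 TPM in ΔAgo2 replicates 1 to 4. Hras stood at 26.8, 41.1, 24.3 and 98.9 TPM in wild-type and at 39.1, 38.6, 30.1 and 32.8 TPM in ΔAgo2 libraries. Nras was above Hras in every library but wild-type replicate 4, where the order was the reverse. Braf stood at 16.1, 19.2, 29.9 and 0.84 TPM in wild-type and at 19.8, 14.8, 20.9 and 17.2 TPM in ΔAgo2 libraries, below Nras in all 8. How the counting treated reads that fit more than one RAS or RAF gene is not given in the sources used here.

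Of the phosphatases, Dusp5 (ENSMUSG00000034765.6, plus strand, chr19:53529109-53542431), a nuclear phosphatase selective for ERK, stood at 59.9, 37.7, 34.0 and 58.1 CPM in wild-type replicates 1 to 4 and at 80.4, 84.3, 78.7 and 61.4 CPM in ΔAgo2 replicates 1 to 4. All ΔAgo2 libraries were above all wild-type libraries, by a narrow margin between ΔAgo2 replicate 4 and wild-type replicate 1. Dusp5 was the 1 of 9 members whose groups did not overlap in CPM, where 3.09% of all tested genes separated with higher ΔAgo2 levels and 6.07% in either direction. The means were 47.4 ± 13.5 CPM for wild-type and 76.2 ± 10.1 CPM for ΔAgo2 cells (SD, n = 4 each). Dusp5 had a log2 fold change of 0.68 (standard error 0.28, unadjusted p = 0.0321 and adjusted p = 0.613 with edgeR), and 0.81 without wild-type replicate 4 (adjusted p = 0.172 with edgeR). An antisense gene, AC137853.2, overlaps the first 547 bases of Dusp5 and held only 10 to 26 counts per library, against 1871 to 4936 for Dusp5.

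Dusp6 (ENSMUSG00000019960.8, plus strand, chr10:99263231-99267489), the cytoplasmic ERK phosphatase, stood at 599, 318, 510.5 and 309.6 CPM in wild-type replicates 1 to 4. In ΔAgo2 replicates 1 to 4 it stood at 599, 555, 574 and 650.4 CPM. Wild-type replicates 2, 3 and 4 were below every ΔAgo2 library. Wild-type replicate 1 was level with ΔAgo2 replicate 1 and above ΔAgo2 replicates 2 and 3. The means were 434 ± 144 and 595 ± 41.4 CPM (SD, n = 4 each), and the log2 fold change came to 0.45 (standard error 0.29, adjusted p = 0.740 with edgeR). Dusp6 was at 0.33 without wild-type replicate 4.

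Dusp4 (ENSMUSG00000031530.6, plus strand, chr8:34807297-34819894), a nuclear phosphatase of ERK and other MAP kinases, was the least even member in ΔAgo2 cells and, with wild-type replicate 4 left out, in wild-type cells. It stood at 144, 26.9, 254 and 40.1 CPM in wild-type replicates 1 to 4 and at 73.3, 71.7, 122 and 51.3 CPM in ΔAgo2 replicates 1 to 4. The ΔAgo2 values all fell inside the wild-type range. The SD of its log2 CPM was 1.52 over the wild-type libraries, still 1.68 without wild-type replicate 4, and 0.51 over the ΔAgo2 libraries. The medians over all tested genes were 0.78 over all wild-type libraries and 0.23 over the ΔAgo2 libraries. No such median was computed without wild-type replicate 4. Dusp4 had a log2 fold change of -0.55 (standard error 0.63, adjusted p = 0.841 with edgeR), which was 0.18 without wild-type replicate 3, the highest library.

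Spry4 (ENSMUSG00000024427.7, minus strand, chr18:38586247-38601415), a Sprouty inhibitor of receptor signalling, stood at 103, 117, 67.0 and 174 CPM in wild-type replicates 1 to 4. In ΔAgo2 replicates 1 to 4 it stood at 229.8, 233, 156 and 223 CPM. The groups overlapped only through wild-type replicate 4, the highest wild-type library, which was above ΔAgo2 replicate 3, the lowest ΔAgo2 library. The means were 115 ± 44.5 CPM for wild-type and 210.5 ± 36.4 CPM for ΔAgo2 cells (SD, n = 4 each). Spry4 had a log2 fold change of 0.87 (standard error 0.32, unadjusted p = 0.0214 and adjusted p = 0.552 with edgeR). Without wild-type replicate 4 it was 1.15 (adjusted p = 0.0742 with edgeR). Spry4 passed the threshold in 1 of the 21 alternative fits: with limma-voom sample weights, which give uneven libraries less say, the log2 fold change was 1.17 (adjusted p = 0.0191), and over all 21 the adjusted p ran from there to 0.975. The opposite-strand RNA genes Gm27369 and Gm27804 overlap Spry4 by 71 and 119 bases, and their counts are not given here.

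Spry2 (ENSMUSG00000022114.5, minus strand, chr14:105891947-105896819), a second Sprouty gene, stood at 98.9, 59.1, 71.9 and 89.8 CPM in wild-type replicates 1 to 4 and at 82.8, 89.8, 88.0 and 123 CPM in ΔAgo2 replicates 1 to 4. Apart from the highest library, ΔAgo2 replicate 4, the ΔAgo2 values lay inside the wild-type range. Its means were 79.9 ± 17.8 and 95.9 ± 18.3 CPM (SD, n = 4 each), and the log2 fold change came to 0.26 (standard error 0.27, adjusted p = 0.818 with edgeR). With the GC correction it was -0.017.

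Etv4 (ENSMUSG00000017724.14, minus strand, chr11:101769742-101785371), an ETS transcription factor of the PEA3 group whose gene responds to ERK, stood at 155, 119, 112 and 285 CPM in wild-type replicates 1 to 4. In ΔAgo2 replicates 1 to 4 it stood at 172, 183, 213 and 161 CPM. The ΔAgo2 libraries lay above wild-type replicates 1 to 3 and below wild-type replicate 4. The means were 168 ± 80.3 and 182 ± 22.3 CPM (SD, n = 4 each). Etv4 had a log2 fold change of 0.12 (standard error 0.33, adjusted p = 0.939 with edgeR), which was 0.51 without wild-type replicate 4 (unadjusted p = 0.0143 and adjusted p = 0.257 with edgeR), -0.028 without wild-type replicate 2 and -0.027 without wild-type replicate 3.

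The members that separated the genotypes depended on the scale and on wild-type replicate 4. Without that library the groups did not overlap in CPM for 3 of 9 members, Dusp5, Spry4 and Etv4, all higher in ΔAgo2, where 6.15% of tested genes separated in that direction and 12.2% in either. None of the 9 was called then (0.777% of genes were, with edgeR at an adjusted p of 0.05), but the same 3 members had an unadjusted p under 0.05, where 5.52% of genes did with a higher ΔAgo2 level and 12.6% in either direction. In TPM over all 8 libraries, 3 of 9 members separated, Dusp5, Dusp6 and Spry4, all higher in ΔAgo2, where 4.26% of tested genes did in that direction and 6.19% in either. Spry4 stood at 66.7, 96.2, 48.3 and 81.2 TPM in wild-type replicates 1 to 4 and at 182, 178, 111 and 165 TPM in ΔAgo2 replicates 1 to 4, so that wild-type replicate 4 was inside the wild-type range on this scale. Dusp6 stood at 591, 397, 558 and 219 TPM in wild-type and at 722, 643, 620.3 and 733 TPM in ΔAgo2 libraries. Dusp5 stood at 74.8, 59.7, 47.0 and 52.1 TPM in wild-type and at 123, 124, 108 and 87.8 TPM in ΔAgo2 libraries. The median log2 fold change over all genes moved from -0.11 in the edgeR fit to 0.15 in limma on log2(TPM + 1). Relative to these medians Spry4 was at 0.98 in both, Dusp5 at 0.79 and 0.76, Dusp6 at 0.56 and 0.57, and Dusp4 at -0.44 and -0.016.

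**Figure D3:**
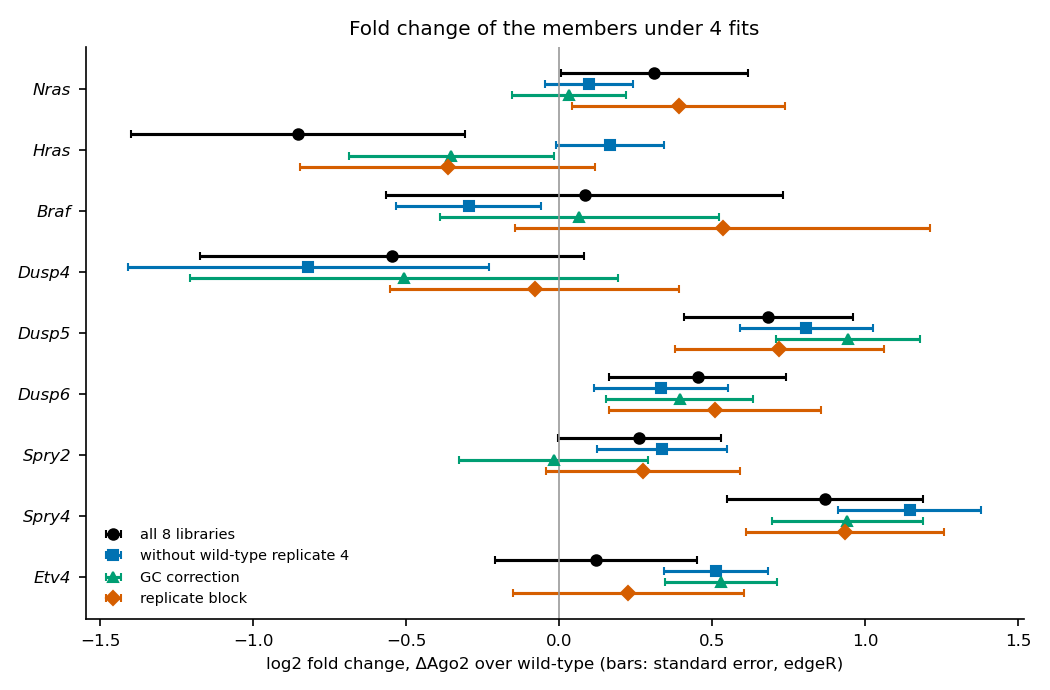
Log2 fold change of each member, ΔAgo2 over wild-type, with its standard error as bars, in edgeR's quasi-likelihood fit of all 8 libraries, without wild-type replicate 4, with a correction for GC content, and with the replicate number as a block. Spry4 lies between 0.87 and 1.15 and Dusp5 between 0.68 and 0.94 in these 4 fits, while Hras ranges from -0.85 to 0.17 and crosses 0.

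Levels can be ranked between genes only per length, in TPM. In ΔAgo2 cells Dusp6 was highest at 680 ± 56.4 TPM (SD, n = 4), followed by Etv4 at 209.7 ± 20.1, Spry2 at 164 ± 29.8, Spry4 at 159 ± 32.9, Dusp5 at 110.4 ± 16.8 and Dusp4 at 103 ± 34.9. The drivers came last, with Nras at 86.1 ± 5.93, Hras at 35.1 ± 4.45 and Braf at 18.2 ± 2.71 TPM (SD, n = 4 each). Of the neighbours in this order, Dusp6 and Etv4, Nras and Hras, and Hras and Braf did not overlap across libraries, and all other neighbours did. In wild-type cells Dusp6 led again at 441 ± 170.4 TPM and Braf was last at 16.5 ± 12.0 TPM (SD, n = 4 each), with Etv4, Dusp4, Spry2, Spry4, Nras, Dusp5 and Hras between them in falling order. There only Dusp6 and Etv4 did not overlap.

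The patterns of the members over the 8 libraries were compared by the root mean square difference of log2 CPM, each gene centred on its own mean. These are descriptions over libraries that share their depth and base composition. Dusp6 and Spry2 were the closest pair, at 0.32. Spry4 and Dusp5, Etv4 and Dusp5, and Nras and Dusp6 came next, each at 0.36. Braf and Hras were farthest apart, at 2.07. The 3 tested genes most like Dusp6 were Nck2 at 0.073, Mettl15 at 0.16 and Med31 at 0.16, where the median over all tested genes was 0.69. For Etv4 they were Zdhhc1 at 0.066, Pxn at 0.090 and Cyb561a3 at 0.098, beside a median of 0.67.

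Around the members, 70 other listed genes of the pathway were found in the table and 68 were tested. None had an adjusted p under 0.05 with edgeR (0 of 68), while 4 were higher and 3 lower in ΔAgo2 at an unadjusted p under 0.05, beside 2.72% and 4.62% of all genes. Their median log2 fold change was 0.082, with 36 above and 32 below 0. The groups did not overlap in CPM for 4 of 68, beside the 6.07% of all genes: Mras, Tgfa, Egr1 and Emp1, the last of them named after its value was seen.

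Upstream of the kinases, log2 fold changes fell on both sides of 0. Of 14 tested RAS genes, exchange factors, adaptors and GTPase-activating proteins, 5 were above and 9 below 0, with a median of -0.10. Mras, a RAS relative, stood at 54.7 ± 23.5 CPM for wild-type and 27.1 ± 2.45 CPM for ΔAgo2 cells (SD, n = 4 each). Wild-type replicate 4 held 88.1 CPM, and without it the wild-type mean was 43.6 ± 9.27 CPM (SD). Over all libraries Mras had a log2 fold change of -1.02 (adjusted p = 0.404 with edgeR). The adaptor Shc1 was at -0.92 (adjusted p = 0.709) and the exchange factor Rasgrp3 at -1.25 (adjusted p = 0.709) in the same fit. The other 7 libraries held Shc1 at 156 to 251 CPM and wild-type replicate 4 at 768 CPM, and its log2 fold change was -0.18 without that library. Of 14 tested receptors and ligands, 6 were above and 8 below 0, with Tgfa, an EGFR ligand, at 1.14 (adjusted p = 0.657), the PDGF receptor Pdgfrb at -2.35 (adjusted p = 0.440) from 3.13 ± 2.55 to 0.609 ± 0.629 CPM (SD, n = 4 each), and Erbb3 at -0.79 (adjusted p = 0.729 with edgeR). Pdgfrb was at -1.62 without wild-type replicate 4.

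The kinase cascade itself had 4 of 10 genes above and 6 below 0, with a median of -0.15. The MEK gene Map2k1 was at 0.12, whereas its relative Map2k2 was at -0.76, the ERK gene Mapk3 at -0.50 and the RAF gene Araf at -0.40 on the log2 scale. Like Hras, Map2k2 and Mapk3 were highest in wild-type replicate 4, at 402 and 443 CPM against 77.5 to 161 CPM in the other 7 libraries, and without it their signs turned, to 0.16 and 0.22. Of the ribosomal S6 kinases downstream of ERK, Rps6ka2 was at 0.43 and Rps6ka1 at -0.69, which were 0.58 and -0.30 without that library. The adjusted p of these 6 genes with edgeR ran from 0.736 to 0.907.

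Downstream of ERK, the medians lay above that of all tested genes, -0.11, although no gene passed the test. Those of the receptors and ligands, -0.036, and of the RAS genes and their regulators, -0.10, also lay above it, by less. Of 13 other feedback inhibitors, 10 were above and 3 below 0, with a median log2 fold change of 0.16. Dusp2, a nuclear MAP kinase phosphatase, was at 0.79 (adjusted p = 0.642), Spred1, a Sprouty-related inhibitor, at 0.50 (adjusted p = 0.770) and Lrig1, which turns down ERBB receptors, at 0.48 (adjusted p = 0.752 with edgeR). Of 17 other ERK response genes, 11 were above and 6 below 0, with a median of 0.29. In limma on log2(TPM + 1), where the median of all genes was 0.15, the medians were 0.51 for the feedback inhibitors, 0.54 for the response genes, 0.32 for the RAS genes and their regulators, 0.25 for the receptors and ligands and 0.069 for the kinases. Egr1, an immediate early transcription factor, stood at 65.9, 105, 109.6 and 62.0 CPM in wild-type replicates 1 to 4 and at 159, 163, 115 and 261 CPM in ΔAgo2 replicates 1 to 4, with no overlap and a log2 fold change of 1.02 (adjusted p = 0.438 with edgeR). Ccnd1, the cyclin that ERK signalling induces in G1, stood at 527, 530.2, 528 and 1068 CPM in wild-type and at 1330, 1306, 998 and 1201 CPM in ΔAgo2 libraries, overlapping only through wild-type replicate 4. Ccnd1 had a log2 fold change of 0.87 (adjusted p = 0.540 with edgeR), and without that library it was called, at 1.20 (adjusted p = 0.0261 with edgeR). The ephrin receptor Epha4, near the limit of detection at 1.08 ± 1.17 and 0.156 ± 0.111 CPM (SD, n = 4 each), was at -2.79 (adjusted p = 0.642 with edgeR).

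**Figure D4:**
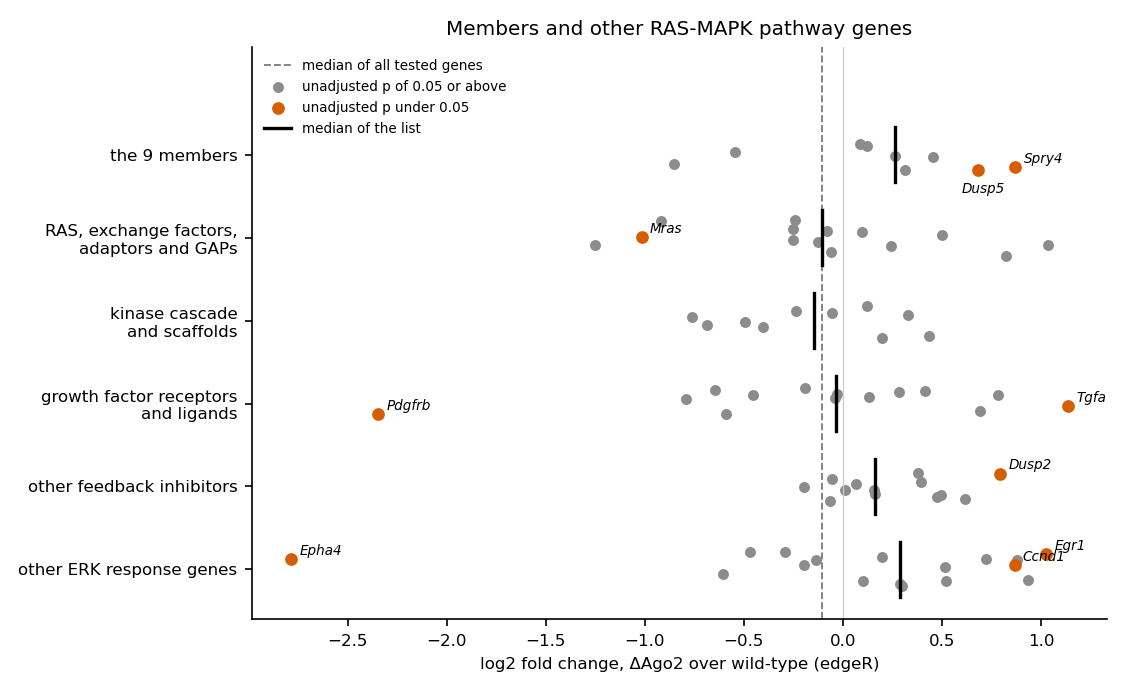
Log2 fold change, ΔAgo2 over wild-type, of the 9 members and of 68 other pathway genes by role (points), with the median of each list (bar) and of all tested genes (dashed line, -0.11), and unadjusted p under 0.05 in orange (edgeR). The medians are 0.26 for the members, 0.16 for other feedback inhibitors and 0.29 for other ERK response genes, and no gene shown has an adjusted p under 0.05.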

How the data were processed

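Total RNA of cultured wild-type and ΔAgo2 LLC cells was sequenced as paired-end stranded mRNA libraries. Reads were mapped by the authors to ribosomal RNA and then to mm10 (STAR is named in the submitters' processing notes) and assigned to genes with featureCounts. The counts, as deposited, are whole and not normalized, and the authors also deposited TPM. The annotation release and strand setting are not given in the sources used here.

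Symbols, positions and GC content came from the GENCODE annotation of GRCm38, which lacks 93 of the 55487 identifiers. After filterByExpr and TMM scaling, genotype was tested by quasi-likelihood (edgeR 4.0.16, limma 3.58.1, R 4.3.3), two-sided, with no other factor and Benjamini-Hochberg adjustment over 14228 genes. Depth allowed 169 counts or more for every member in every library. A standard error is the log2 fold change over the square root of its F statistic.

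The members and lists were chosen with earlier results of these data known. All members are described. From the pathway list the core cascade (Araf, Map2k1, Map2k2, Mapk3) and the 3 genes of smallest p per role are named, and the 3 genes most like Dusp6 and Etv4. A few listed genes, and the planned comparison of TPM shares that needs them, are not reported here.

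The alternatives were DESeq2 1.42.0, limma-voom with equal or with sample weights, other size factors, no filter or 10 CPM in 4 libraries, robust dispersion, the replicate number as a block, a GC correction (spline with 5 degrees of freedom), each library left out, and limma on log2 TPM with pseudocounts of 1 and 0.1. Overlap of the groups in TPM or without wild-type replicate 4 was added after seeing the data. The scripts were tested on simulated counts.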

Additional observations from a re-analysis of the deposited data

Results flagged for a closer look

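In groups of 4 libraries, a gene was looked at again when the gap between its highest or lowest library and the nearest other library took more than 0.829 of the group's whole range (Dixon's 95% limit, on log2 CPM). Chance alone would give about 1 such group in 20, and 30 groups were looked at. These 30 groups did not cover every gene named above. Ccnd1 was left out, although its wild-type replicate 4 stood at 1068 CPM and the other wild-type libraries at 527 to 530.2 CPM. For Spry4 in ΔAgo2 cells the gap took 0.883 of the range, since ΔAgo2 replicate 3 was at 156 CPM and the others at 223 to 233 CPM. For Map2k2 in wild-type cells it took 0.843, with wild-type replicate 4 at 402 CPM above 77.5 to 100.3 CPM.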

How the results depend on the processing

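No member was called in 20 of the 21 alternatives, and 1, Spry4, was called with sample weights in limma-voom. Spry4 (0.68 to 1.17), Dusp5 (0.56 to 0.98), Dusp6 (0.21 to 0.72) and Nras (0.033 to 0.60) kept a log2 fold change above 0 in all 21. Reversed signs were seen for Hras with sample weights (0.17) and without wild-type replicate 4 (0.17), for Braf with sample weights (-0.13), without wild-type replicate 4 (-0.29) and without ΔAgo2 replicate 3 (-0.034), for Spry2 with the GC correction (-0.017), for Etv4 without wild-type replicate 2 (-0.028) or 3 (-0.027), and for Dusp4 without wild-type replicate 3 (0.18), with the GC correction and replicate block together (0.18) and on log2 TPM with either pseudocount (0.14 and 0.14); the cause was not tested. With each library left out, values ran from -1.11 to 0.17 for Hras, from -0.29 to 0.54 for Braf, from -0.89 to 0.18 for Dusp4, and from -0.028 to 0.51 for Etv4. The alternatives planned for TPM shares were not run. DESeq2 gave Hras no p, since its outlier filter set it aside.

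Of the pathway genes, 1 was called with DESeq2 (Pdgfrb), 1 with sample weights and 1 without wild-type replicate 4 (both Ccnd1). Members whose groups did not overlap numbered 3 in TPM and 3 without wild-type replicate 4, against 1. Over all genes, 42 were called, and 399 with DESeq2, 257 with sample weights, 143 with no filter, 1 with at least 10 CPM in 4 libraries, 74 with the GC correction, 15 on log2(TPM + 1), and 1 to 113 with each library left out. With the replicate block 18 genes were called, and 70 with the GC correction added. Whether the numbers pair the libraries cannot be settled here. Deviations of same-numbered libraries from their group means correlated at -0.14, -0.049, 0.38 and 0.028, and 1 of 4 numbers had its own partner as the best. The wild-type mean includes replicate 4, which stood apart. With the block Spry4 was at 0.93 (adjusted p = 0.651) and Dusp5 at 0.72 (adjusted p = 0.902, edgeR), and no member was called.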

Other observations

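The unevenness of Dusp4 among wild-type libraries had a counterpart in the EGFR ligands Areg, Hbegf and Ereg, which were picked for this description after their values were seen. Areg stood at 141, 28.7, 81.3 and 21.8 CPM in wild-type replicates 1 to 4 and at 57.3, 67.4, 125 and 49.8 CPM in ΔAgo2 replicates 1 to 4. Hbegf stood at 55.7, 11.4, 78.7 and 20.7 CPM in wild-type and at 35.3, 35.5, 56.0 and 35.2 CPM in ΔAgo2 libraries. Ereg stood at 74.7, 33.5, 137 and 3.97 CPM in wild-type and at 66.7, 60.4, 126 and 49.6 CPM in ΔAgo2 libraries. As for Dusp4, wild-type replicates 1 and 3 held the highest levels in their group and ΔAgo2 replicate 3 in its own for each of these 3 ligands, and the groups overlapped. Tgfa, another EGFR ligand, differed from them in ΔAgo2 cells, where replicates 1 to 4 stood at 13.6, 13.2, 6.84 and 6.75 CPM, above 6.71, 3.84, 6.24 and 1.55 CPM in wild-type replicates 1 to 4. Wild-type replicates 1 and 3 and ΔAgo2 replicate 3 were also highest in their groups for Rras2, Sos1, Dusp10, Dusp16 and the member Braf. The pattern was thus not particular to Areg, Hbegf and Ereg. These are values from a few libraries, and no relation between the ligands and Dusp4 was tested. In edgeR's fit the log2 fold changes between genotypes were 0.13 for Areg, -0.041 for Hbegf and 0.28 for Ereg (adjusted p = 0.964, 0.989 and 0.938).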
